A study of Mus musculus with 8 samples.

Results

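The genes described here are the heat shock proteins and their DnaJ co-chaperones in mouse tibialis anterior, a shin muscle of mostly fast fibres. They were chosen by name: every non-control probe of the array whose gene symbol starts with Hsp followed by a letter from a to h or a digit, or with Dnaja, Dnajb or Dnajc followed by a number. This took 142 of 41174 probes and 75 of 27398 gene symbols, in the classes Hspa (13 genes), Hspb (8), Hsp90 (3), Dnaja (4), Dnajb (13) and Dnajc (28), with the chaperonin and Hsp110 genes Hspd1, Hspe1 and Hsph1 set apart. It also took 3 genes of other kinds: Hspbp1 and Hspbap1, which are named for binding heat shock proteins, and Hspg2, the basement membrane proteoglycan perlecan, which is no heat shock protein. RNA of 8 mice was hybridised to 1-colour arrays, 1 array per mouse. All mice were males of 8 weeks on a C57BL/6 background; 4 were Prep1deltaSM, with Prep1 ablated in skeletal muscle, and 4 were Prep1f/+, the control with a floxed Prep1 allele. The promoter that drives the deletion is not given in the sources used here, and the floxed allele of the controls was not otherwise described. The comparison asks what loss of Prep1, a homeodomain transcription factor encoded by Pknox1, does to the muscle's transcripts.

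Heat shock proteins are chaperones that bind unfolded or partly folded proteins and keep them from aggregating. The Hsp70 proteins (Hspa genes) work in cycles of ATP hydrolysis that DnaJ proteins (Dnaj genes) start by delivering a substrate and that nucleotide exchange factors end, while Hsp90 proteins finish the folding of kinases and receptors, and small heat shock proteins (Hspb genes) hold unfolded chains without ATP. Some of these genes are expressed at all times, and others are switched on within minutes by heat, exercise or injury through the transcription factor Hsf1. In muscle, small heat shock proteins attach to the contractile filaments, and the heat-inducible Hsp70 genes respond to contraction and tissue damage.

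Signals are given as log2 of the background-subtracted intensity relative to the 75th percentile of the same array, always in the order of arrays 1 to 4 of a group, and a difference is Prep1deltaSM minus Prep1f/+. The array numbers only name the mice and do not pair them. Of the 43379 spots on an array, 23787 to 27123 rose well above background. The probe of the targeted gene Pknox1 read -0.09, -0.31, -0.21 and -0.51 in Prep1f/+ and -1.84, -2.08, -2.28 and -1.96 in Prep1deltaSM, a difference of -1.76 ± 0.13 (SE) with an adjusted p of 0.0072 by limma (0.062 with slide as a block, and a difference of -0.89 after normexp correction); whether this probe lies in the deleted part was not settled. Fast muscle genes (Ckm, Acta1, Myh4, Tnnt3, Mylpf, Pvalb) lay between 8.84 and 11.52 on all 8 arrays. Groups of 4 limit the precision of every value, and less RNA per cell cannot be told apart from fewer cells of a type.

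Of the 75 genes, 68 were well above background on at least 4 arrays and were tested among 16016 genes. The other 7 (Dnajb7, Dnajb8, Dnajb13, Dnajc5b, Dnajc5g, Dnajc6 and Dnajc22) were not well above background on any array and have no value here. Dnajc6 encodes auxilin, which removes clathrin coats in neurons, and Dnajb13 encodes a sperm flagellum protein. Dnajb3 passed the filter with 5 arrays above background, 3 of Prep1f/+ and 2 of Prep1deltaSM.

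Promoter and probe sequences are shown because they bear on how these genes are switched on and on how well related Hsp70 transcripts can be told apart. A RefSeq promoter window, from 250 bases before to 50 bases after a start site in GRCm38.p6, was on hand for 61 of the 75 genes. Those without one include Hsp90aa1, Hsp90ab1, Hspa8 and Hspb2. The binding element of heat shock factors was searched on both strands as GAA, TTC and GAA, or TTC, GAA and TTC, with any 2 bases between neighbouring blocks. It was found for 4 of the 61 genes (6.56%), namely Dnajb6, Hspd1, Hspe1 and Hsph1, and for 179 of all 27025 genes with a promoter (0.662%). Hspd1 and Hspe1, which encode the mitochondrial chaperonin and its lid, are divergent neighbours and share 1 element, 72 bases before the Hspe1 start and 127 bases before the Hspd1 start at their nearest. The Dnajb6 element lies 34 and 115 bases before the 2 annotated starts of that gene. Each of the 2 promoter windows of Hsph1 holds 1 match, within 48 bases after the start of that window, and neither is printed. The runs below are on the plus strand, at chr1:55088053-55088082 and chr5:29735846-29735870 of GRCm38.p6, with the element in capitals.
Hspe1 and Hspd1: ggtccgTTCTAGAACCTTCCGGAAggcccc
Dnajb6: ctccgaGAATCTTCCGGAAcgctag
These letters were not in the promoter windows of Hspa1a, Hspa1b or Dnajb1. The CCAAT box, searched on both strands, was in the promoters of 25 of the 61 genes (41.0%) and of 41.1% of all genes. A match describes the sequence and is not evidence of binding.

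The probes of Hspa1b, Hspa1l and Hspa2 lie over related coding sequence. In mm9, the build of the files, the Hspa1b probe covers chr17:35094200-35094259 on the minus strand, the Hspa1l probe covers chr17:35115629-35115688 on the plus strand, and the second Hspa2 probe covers chr12:77507203-77507262 on the plus strand. Capitals mark the bases that are identical to the Hspa1b probe when the probes are laid over each other without gaps.
Hspa1b: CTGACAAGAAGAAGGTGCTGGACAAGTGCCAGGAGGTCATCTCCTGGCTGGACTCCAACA
Hspa1l: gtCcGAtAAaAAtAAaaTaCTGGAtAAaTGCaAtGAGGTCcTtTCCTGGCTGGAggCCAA
Hspa2: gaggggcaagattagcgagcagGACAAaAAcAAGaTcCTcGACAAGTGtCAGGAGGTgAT
The Hspa1l probe matched the Hspa1b probe at 43 of 58 overlapping bases (74.1%), and the Hspa2 probe at 31 of 40 (77.5%). Hspa1a and Hspa1b encode nearly the same protein, so their coding sequence differs little, and signal from either transcript at the Hspa1b probe cannot be told apart. The 2 Hspa1a probes of the array overlap each other by 30 bases and are no separate measurements.

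No heat shock or DnaJ gene passed an adjusted p of 0.05 in the limma fit across all genes, where 0.00624% of genes did. At an unadjusted p under 0.05, 3 of the 68 tested genes were higher in Prep1deltaSM (Dnajc13, Dnajc27 and Dnajb5), against a background of 5.54% of all genes. At the same threshold 8 were lower (Dnajc17, Dnajc4, Hspb2, Dnajb11, Hspbap1, Hspa2, Dnajc15 and Hspb11), against 10.3% of all genes. These counts are near the background, and 41 of 68 differences were negative with a median of -0.06, beside a median of -0.07 over all genes. The 4 arrays of each group did not overlap for 9 of the 68 (13.2%), 3 higher and 6 lower, against 10.5% of all genes. The plot of differences by class shows how little most genes moved and how wide the errors of Hspa1a and Hspa1b were.

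**Figure D1:**
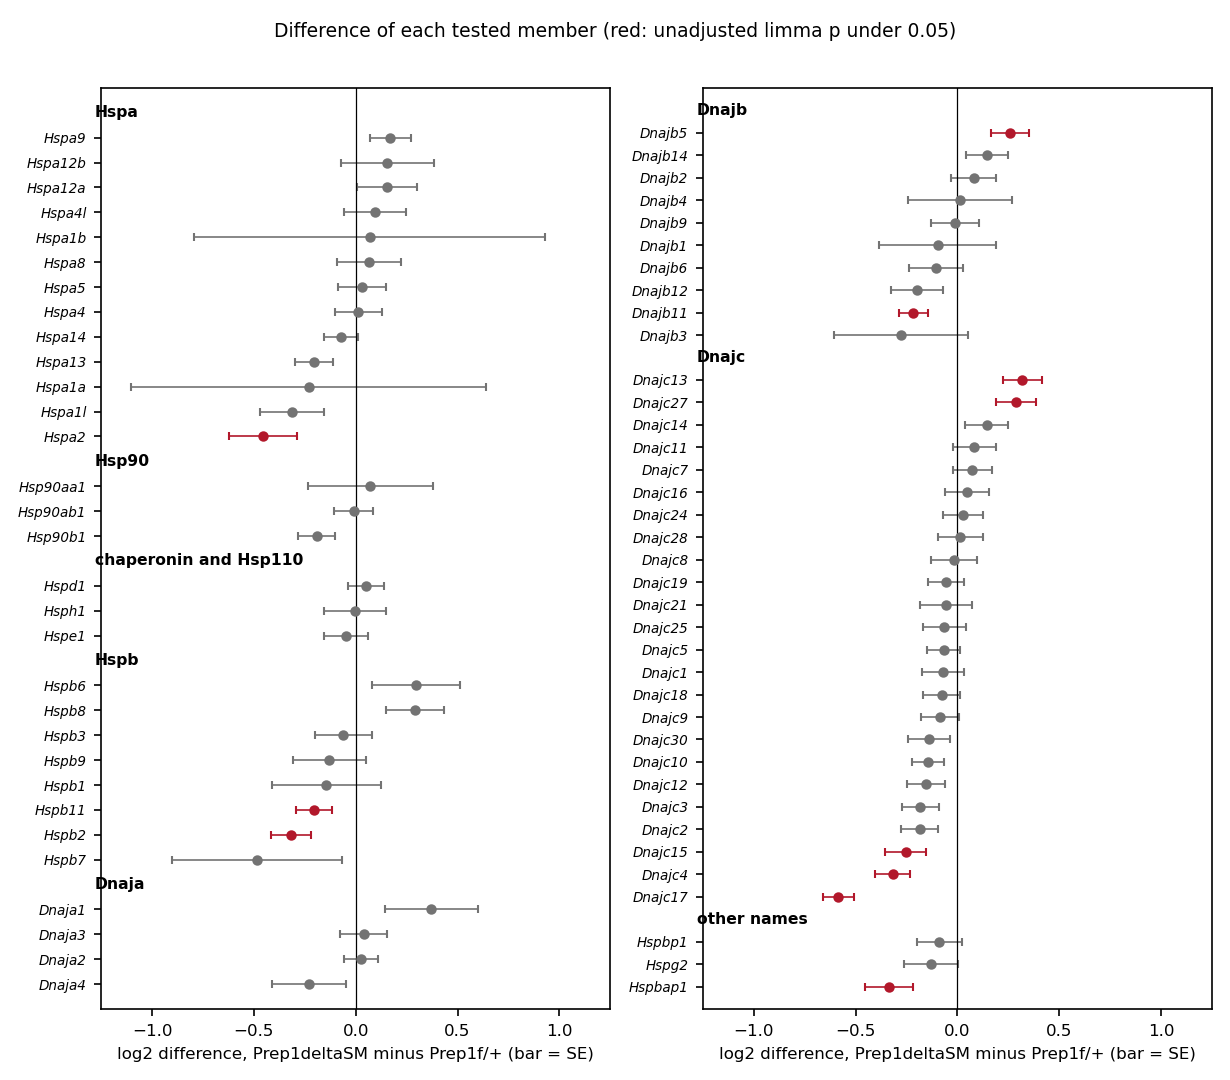
Log2 difference (Prep1deltaSM minus Prep1f/+, x axis) of the 68 tested genes by class, with the standard error as a bar; red points have an unadjusted limma p under 0.05. The 3 red points right of 0 are Dnajb5, Dnajc13 and Dnajc27, and the 8 left of 0 reach from Hspb11 at -0.21 to Dnajc17 at -0.58.

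Among the Hsp70 genes, 13 were tested. At an unadjusted p under 0.05, 0 were higher and 1, Hspa2, was lower, beside 5.54% and 10.3% of all genes. Their median difference was 0.03, beside -0.07 over all genes. The widest variation in the class lay between mice of the same group. Hspa1a, a heat-inducible Hsp70 gene, read 2.30, 1.05, 1.30 and 3.80 in Prep1f/+ and 1.72, 0.56, 1.01 and 4.22 in Prep1deltaSM. In each group array 4 was highest, array 1 came next, and the groups overlapped over their whole length. Between the lowest and the highest mouse Hspa1a differed 12.7-fold, whereas the difference between genotypes was -0.23 ± 0.87 (SE), with a 95% confidence interval from -2.22 to 1.76 and an adjusted p of 0.921. Its pooled SD within groups was at the 99.7th percentile of all genes tested. Hspa1b, the neighbouring copy on chromosome 17, read -0.38, -1.83, -1.55 and 1.11 in Prep1f/+ and -0.74, -2.04, -1.15 and 1.55 in Prep1deltaSM. Arrays 4 and 1 were again the highest in each group, and the fold between extremes was 12.0, with a difference of 0.07 ± 0.86 (SE). The farther upstream Hspa1b probe was also highest on array 4 of each group, at -2.72 and -2.10. That probe was well above background on only 4 of the 8 arrays, 2 of each group. Hspa1l, the testis-enriched gene of the same cluster, did not share this pattern: it read 2.05, 1.91, 1.73 and 1.41 in Prep1f/+ and 1.61, 1.22, 1.41 and 1.62 in Prep1deltaSM. There the lowest Prep1f/+ mouse was array 4, and the difference of -0.31 ± 0.16 (SE) had an unadjusted p of 0.0802, which was 0.0403 with slide as a block.

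Hspa2, best known from male germ cells, read 0.59, 0.51, 0.33 and 0.57 in Prep1f/+ and 0.34, 0.13, 0.14 and -0.45 in Prep1deltaSM. The lowest Prep1deltaSM mouse was array 4, and array 1 of that group just reached the lowest Prep1f/+ mouse. The gene was 1.37-fold lower, a difference of -0.46 ± 0.17 (SE) with an unadjusted p of 0.024 and an adjusted p of 0.251. The upstream Hspa2 probe printed above gave -0.50 ± 0.24 (SE) with an unadjusted p of 0.0685. Without Prep1deltaSM array 4 and Prep1f/+ array 4 together, the difference was -0.27, with an unadjusted p of 0.0534.

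Among the constitutive Hsp70 genes, Hspa8, the main Hsp70 of unstressed cells, read 7.14, 6.72, 6.94 and 7.08 in Prep1f/+ and 6.98, 6.89, 6.83 and 7.45 in Prep1deltaSM. Array 4 of Prep1deltaSM was the highest of all 8, the other 7 overlapped, and the difference was 0.07 ± 0.16 (SE). An upstream Hspa8 probe, described with the probe pairs, gave 0.60, and the average of both probes gave 0.33 with an unadjusted p of 0.0432. Hspa5, the Hsp70 of the endoplasmic reticulum (BiP), differed by 0.03 ± 0.12 (SE), with Prep1f/+ between 4.26 and 4.68 and Prep1deltaSM between 4.45 and 4.53. Hspa9, the mitochondrial Hsp70 (mortalin), differed by 0.17 ± 0.10 (SE), with an unadjusted p of 0.132, and by 0.25 with an unadjusted p of 0.0089 after normexp correction and quantile normalization. Hspa13, an Hsp70 of the microsomes, read 0.38, 0.21, 0.39 and 0.22 in Prep1f/+ and -0.06, 0.20, 0.07 and 0.17 in Prep1deltaSM. At this probe all Prep1deltaSM mice lay below all Prep1f/+ mice, by a small gap, with a difference of -0.21 ± 0.09 (SE) and an unadjusted p of 0.0544. The other tested Hspa13 probe, at 0.03 to 0.31 in Prep1f/+ and 0.12 to 0.33 in Prep1deltaSM, overlapped and differed by 0.04 ± 0.10 (SE). Hspa4 (0.01 ± 0.11, SE) and Hspa4l (0.10 ± 0.15), members of the Hsp110 family of exchange factors, and Hspa14 (-0.07 ± 0.08), which works at the ribosome, had differences no larger than their errors. Hspa12a, an atypical Hsp70, differed by 0.15 ± 0.15 (SE).

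Hspa12b, an atypical Hsp70 of the endothelium, read 2.13, 2.28, 2.31 and 3.04 in Prep1f/+ and 2.65, 2.24, 2.50 and 3.0 in Prep1deltaSM. Here too array 4 led each group, and the difference of 0.16 ± 0.23 (SE) was within the spread.

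The cytosolic Hsp90 genes split in the same way. Hsp90aa1, the heat-inducible form, read 3.59, 3.08, 3.22 and 4.13 in Prep1f/+ and 3.52, 3.15, 3.30 and 4.34 in Prep1deltaSM. Array 4 led and array 1 followed in each group, and the difference of 0.07 ± 0.31 (SE) was far inside that spread. Hsp90ab1, the constitutive form, read 5.46, 5.38, 5.29 and 5.14 in Prep1f/+ and 5.20, 5.27, 5.35 and 5.41 in Prep1deltaSM. The Prep1f/+ minimum and the Prep1deltaSM maximum both fell on array 4, and the difference was -0.0093 ± 0.10 (SE). Hsp90b1, the Hsp90 of the endoplasmic reticulum (Grp94), read 4.54, 4.46, 4.50 and 4.59 in Prep1f/+ and 4.24, 4.25, 4.31 and 4.52 in Prep1deltaSM. Only array 4 of Prep1deltaSM reached into the range of the Prep1f/+ mice, and the difference was -0.19 ± 0.09 (SE) with an unadjusted p of 0.0618. The upstream Hsp90b1 probe, at 3.89 to 4.17 in Prep1f/+ and 3.98 to 4.13 in Prep1deltaSM, overlapped and differed by 0.03 ± 0.09 (SE). None of the 3 Hsp90 genes passed an unadjusted p of 0.05.

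Hsph1, the inducible Hsp110 that recharges Hsp70 with ATP, read 4.22, 4.10, 4.12 and 4.49 in Prep1f/+ and 4.10, 4.12, 4.06 and 4.62 in Prep1deltaSM. Array 4 stood above the other 3 in each group, and the groups otherwise coincided, with a difference of -0.0048 ± 0.15 (SE). Hspd1 (Hsp60) and Hspe1 (Hsp10), the mitochondrial chaperonin pair with the shared promoter element, differed by 0.05 ± 0.09 and -0.05 ± 0.11 (SE). Their lowest and highest mice were only 1.23-fold and 1.30-fold apart.

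**Figure D2:**
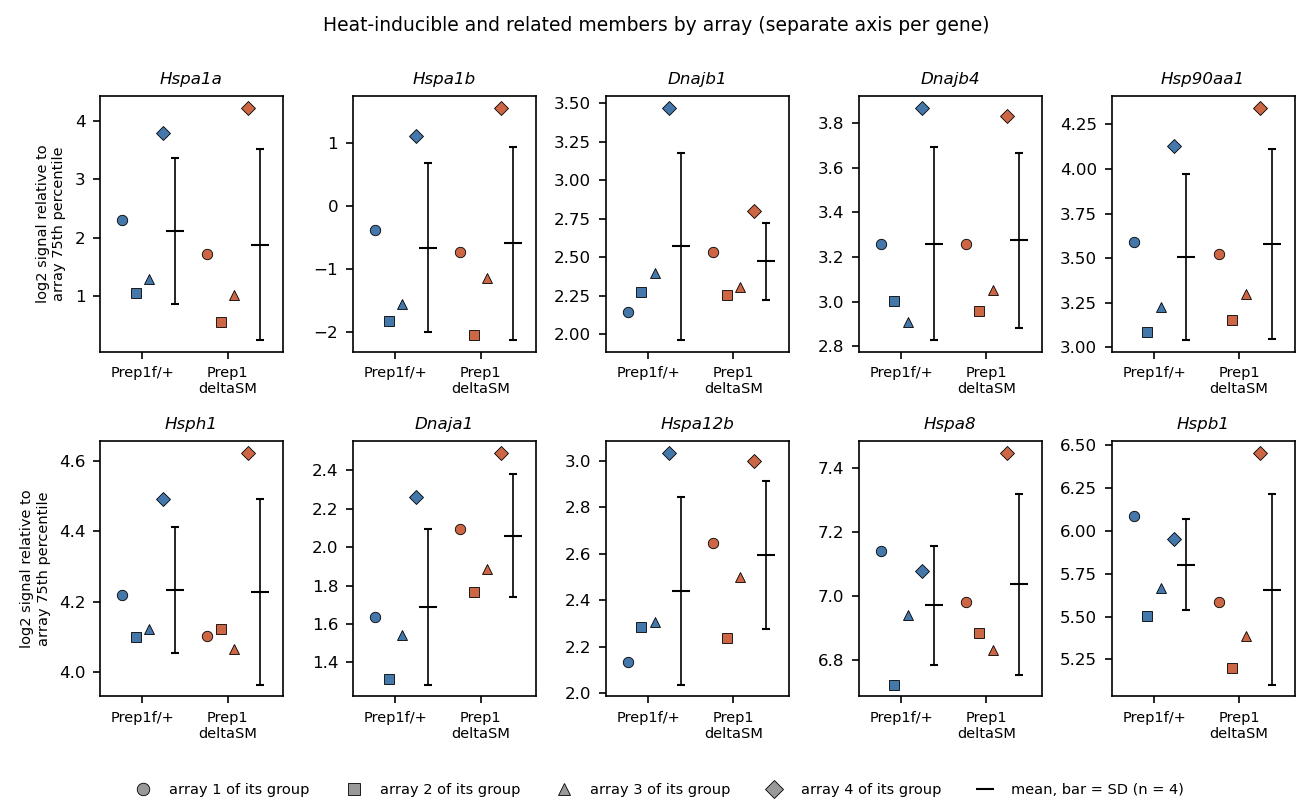
Log2 signal relative to the array's 75th percentile (y axis, its own scale for each gene) on the 4 arrays of each genotype, with the mean and SD at the right of each group; the marker shape gives the array number. The diamond, array 4, is the highest of its group in both groups for 8 of the 10 genes shown, and in Prep1deltaSM alone for Hspa8 and Hspb1. Those 8 are all the tested genes with this order and a gap over 0.5 in either group. Their share among the genes shown is therefore no separate result. Over the 68 tested genes, both arrays 4 were highest for 12 (17.6%).

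Array 4 of each group was compared over all genes, a view chosen after these values were seen. Both arrays 4 were the highest of their group for 12 of the 68 tested genes (17.6%) and for 7.97% of all genes. With a gap of more than 0.5 to the next array in at least 1 of the groups, these were 8 of 68 (11.8%) and 2.19% of all genes. The 8 were Hspa1a, Hspa1b, Hspa12b, Hsp90aa1, Hsph1, Dnaja1, Dnajb1 and Dnajb4, and the other 4 were Hspa4l, Hsp90b1, Dnajb5 and Hspe1. None of the 24 tested Dnajc genes and none of the 8 tested Hspb genes was among the 12. At the share of 7.97% over all genes, sets this small would hold few or none. The same 2 arrays had the fewest spots above background of their groups, 23787 in Prep1f/+ and 24888 in Prep1deltaSM, and they lay on different slides. Atf3, a stress-induced factor among 6 immediate early genes listed for tissue handling, read 0.72, 0.05, 0.06 and 3.78 in Prep1f/+ and 2.08, 0.22, 0.74 and 2.89 in Prep1deltaSM, and was also highest there. Of that list, Fos was highest on these arrays as well (1.12 and 0.54), Junb, Egr1 and Ier2 were not, and Fosb was not tested. Those 3 were lower in Prep1deltaSM at an unadjusted p under 0.05, Junb by -0.65 ± 0.13 (SE), Ier2 by -0.81 ± 0.19 and Egr1 by -1.55 ± 0.59, and the groups did not overlap for Junb and Ier2. The part of RNA quality and of handling in the pattern was not tested.

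The small heat shock protein genes gave 0 higher and 2 lower of 8 tested at an unadjusted p under 0.05, with a median of -0.14. Over all genes 5.54% were higher and 10.3% lower at that threshold, with a median of -0.07. Hspb2, a muscle protein that binds the myotonic dystrophy kinase, read 6.21, 6.17, 5.94 and 5.97 in Prep1f/+ and 5.70, 5.64, 5.78 and 5.89 in Prep1deltaSM. All Prep1deltaSM mice lay below all Prep1f/+ mice. The gene was 1.25-fold lower, with a difference of -0.32 ± 0.10 (SE), an unadjusted p of 0.0114 and an adjusted p of 0.214. Its upstream probe, at 2.99 to 3.42 in Prep1f/+ and 3.04 to 3.16 in Prep1deltaSM, overlapped and differed by -0.08 ± 0.11 (SE). Cryab, the small heat shock protein alphaB-crystallin and the neighbour of Hspb2, read 7.83, 6.96, 6.76 and 6.56 in Prep1f/+ and 6.41, 6.37, 6.44 and 6.94 in Prep1deltaSM. Array 1 of Prep1f/+ stood highest, the groups overlapped through array 4 of Prep1deltaSM, and the difference of -0.49 ± 0.27 (SE) had an unadjusted p of 0.105. That difference was -0.016 with the Cryab probes averaged, -0.22 without Prep1f/+ array 1 and -0.78 (unadjusted p 0.0251) without array 4 of both groups, while slide as a block gave an unadjusted p of 0.0158.

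Hspb7, a chaperone of heart and muscle that binds filamin, had the widest spread of the class. It read 4.92, 4.30, 3.67 and 3.0 in Prep1f/+ and 3.74, 3.18, 2.95 and 4.08 in Prep1deltaSM, a 3.91-fold range over 8 mice. Array 4 was the lowest of Prep1f/+ and the highest of Prep1deltaSM, so the order differed from that of the inducible Hsp70 genes. This probe was printed as 10 spots on each array, whose SD was 0.04 to 0.07 on the 8 arrays, against an SD between mice of 0.83 in Prep1f/+ and 0.52 in Prep1deltaSM. The second Hspb7 probe ordered the Prep1f/+ mice alike, from 4.11 on array 1 to 2.22 on array 4, and was also highest on array 4 of Prep1deltaSM at 3.36. The difference of -0.49 ± 0.42 (SE) had an unadjusted p of 0.275, which was 0.0172 (adjusted p 0.252) with slide as a block, with differences of -0.56, -0.50, -0.84 and -0.05 within slides 1 to 4. Without array 4 of both groups it was -1.01 ± 0.35 (SE) with an unadjusted p of 0.0245 and an adjusted p of 0.244.

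Hspb1 (Hsp25, the mouse Hsp27), an inducible actin-binding chaperone, read 6.08, 5.50, 5.67 and 5.95 in Prep1f/+ and 5.58, 5.20, 5.39 and 6.46 in Prep1deltaSM. Array 4 of Prep1deltaSM stood alone above all others. The difference was -0.14 ± 0.27 (SE), and -0.41 with an unadjusted p of 0.0422 without that array, singled out after its value was seen. Over the alternatives run, the Hspb1 difference went from -0.41 to 0.07, with no adjusted p under 0.307. Hspb6 (Hsp20), which relaxes smooth muscle when phosphorylated, read 4.21, 3.67, 3.22 and 3.19 in Prep1f/+ and 3.89, 3.82, 3.76 and 4.01 in Prep1deltaSM. Array 1 of Prep1f/+ was above all Prep1deltaSM mice and the other 3 Prep1f/+ mice below them, with a difference of 0.30 ± 0.22 (SE). Leaving that array out, singled out after its value was seen, gave 0.51 and an unadjusted p of 0.0077. Over the alternatives run, the Hspb6 difference went from 0.12 to 0.51, with unadjusted p up to 0.629 and no adjusted p under 0.225. Hspb8 (Hsp22), which works with Bag3 in clearing damaged filament proteins, read 4.99, 4.50, 4.77 and 4.56 in Prep1f/+ and 5.26, 4.90, 4.80 and 5.02 in Prep1deltaSM. Only array 1 of Prep1f/+ lay inside the range of the other group, and the difference was 0.29 ± 0.14 (SE) with an unadjusted p of 0.0754.

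Hspb11, a small protein of the cilium transport machinery despite its name, read 0.51, 0.43, 0.68 and 0.56 in Prep1f/+ and 0.25, 0.28, 0.45 and 0.38 in Prep1deltaSM. The groups overlapped at 1 mouse each, and the difference was -0.21 ± 0.09 (SE) with an unadjusted p of 0.0456. This threshold was kept in only 2 of the 8 fits that left out an array. Hspb3, the partner of Hspb2 in muscle, and Hspb9, a testis protein with a dim signal here, differed by -0.06 ± 0.14 and -0.13 ± 0.18 (SE).

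**Figure D3:**
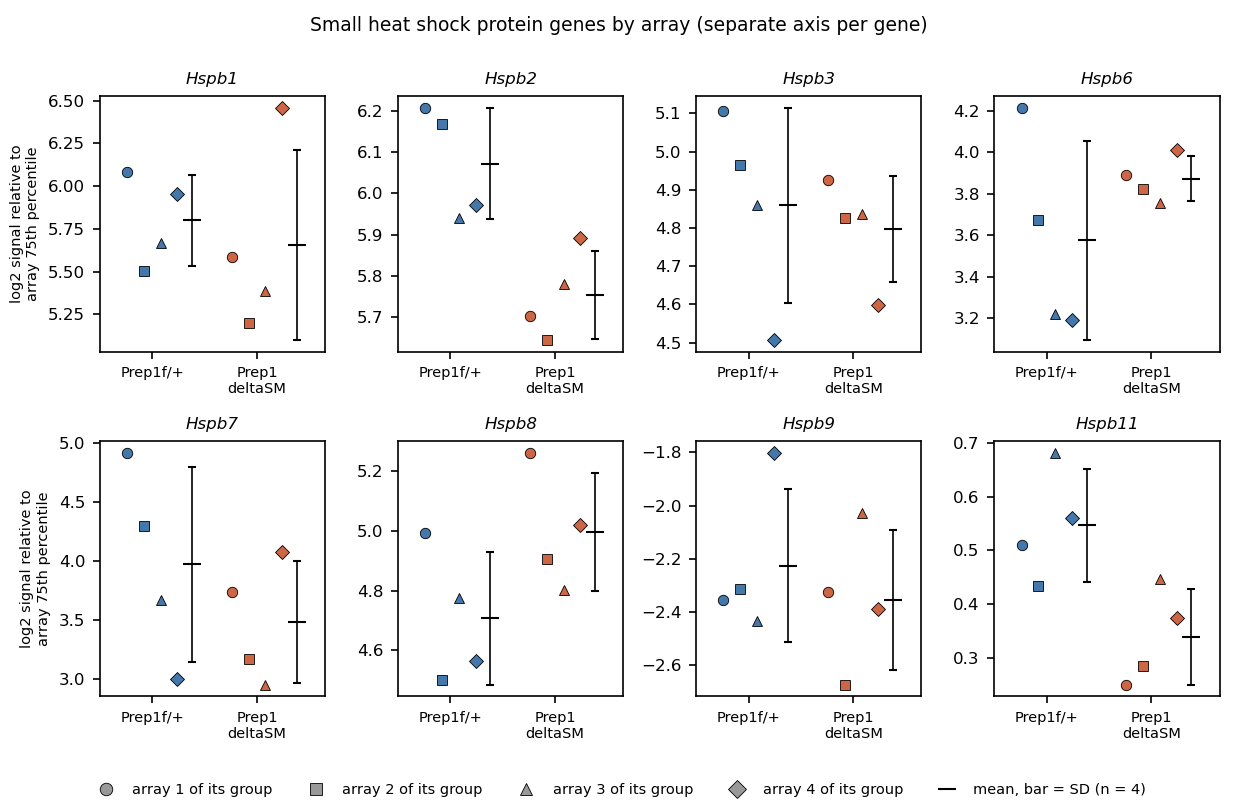
Log2 signal relative to the array's 75th percentile (y axis, its own scale for each gene) of the 8 Hspb genes on the 4 arrays of each genotype, with mean and SD at the right of each group and array numbers as marker shapes. The groups do not overlap for Hspb2 alone, and Hspb7 spans 2.95 to 4.92.

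The Dnaja genes, the co-chaperones most like bacterial DnaJ, gave 0 of 4 at an unadjusted p under 0.05. Over all genes 5.54% were higher and 10.3% lower at that threshold. Dnaja1, the inducible cytosolic form, read 1.64, 1.31, 1.54 and 2.26 in Prep1f/+ and 2.10, 1.77, 1.89 and 2.49 in Prep1deltaSM. Array 4 led each group, and each of the other Prep1deltaSM mice lay above each of the other Prep1f/+ mice. The difference was 0.37 ± 0.23 (SE) with an unadjusted p of 0.14, and 0.42 ± 0.13 (SE) with an unadjusted p of 0.0187 and an adjusted p of 0.23 without array 4 of both groups. Dnaja4, which is abundant in muscle, read 4.26, 3.89, 3.74 and 3.52 in Prep1f/+ and 3.55, 3.56, 3.40 and 3.97 in Prep1deltaSM. Array 4 was the lowest of one group and the highest of the other, and the difference was -0.23 ± 0.18 (SE). It was -0.092 without Prep1f/+ array 1, and -0.46 with an unadjusted p of 0.0214 without array 4 of both groups. Dnaja2 (0.02 ± 0.08, SE) and the mitochondrial Dnaja3 (0.04 ± 0.11) had differences smaller than their errors.

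Of the 10 tested Dnajb genes, 1 was higher and 1 lower at an unadjusted p under 0.05, beside 5.54% and 10.3% of all genes. Dnajb5, a regulator of class II histone deacetylases in striated muscle, read 1.52, 1.63, 1.68 and 1.82 in Prep1f/+ and 1.86, 1.86, 1.93 and 2.03 in Prep1deltaSM. Every Prep1deltaSM mouse lay above every Prep1f/+ mouse. The gene was 1.20-fold higher, with a difference of 0.26 ± 0.09 (SE), an unadjusted p of 0.0222 and an adjusted p of 0.245. The other 2 Dnajb5 probes gave 0.11 ± 0.12 and 0.14 ± 0.14 (SE), and the difference was 0.17 (unadjusted p 0.123) with probes averaged and 0.15 (0.195) with the deposited table. The unadjusted p was 0.0547 with slide as a block, and 0.0592, 0.0513 and 0.061 without Prep1f/+ array 1, Prep1f/+ array 2 or Prep1deltaSM array 4. Dnajb11, the co-chaperone of BiP in the endoplasmic reticulum, read 3.17, 3.19, 3.21 and 3.16 in Prep1f/+ and 2.92, 3.04, 2.99 and 2.91 in Prep1deltaSM. The groups did not overlap, and the mice of each group were among the tightest measured, with a pooled SD at the 0.356th percentile of all genes. The gene was 1.16-fold lower, with a difference of -0.22 ± 0.07 (SE), an unadjusted p of 0.0158 and an adjusted p of 0.227.

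Dnajb1 (Hsp40), the inducible partner of Hspa1a, read 2.14, 2.27, 2.40 and 3.47 in Prep1f/+ and 2.53, 2.26, 2.30 and 2.80 in Prep1deltaSM. Array 4 was the highest in each group, by 1.07 in Prep1f/+ and 0.27 in Prep1deltaSM, and the difference was -0.10 ± 0.29 (SE). Dnajb4, another inducible member that is strong in heart and muscle, read 3.26, 3.0, 2.91 and 3.87 in Prep1f/+ and 3.26, 2.96, 3.05 and 3.83 in Prep1deltaSM. In each group array 4 was highest, the 2 groups covered the same range, and there was a difference of 0.01 ± 0.26 (SE). Dnajb6, whose human gene is mutated in a limb-girdle muscular dystrophy, read 4.05, 4.07, 4.14 and 3.70 in Prep1f/+ and 3.77, 4.00, 3.67 and 4.09 in Prep1deltaSM, with full overlap and a difference of -0.11 ± 0.13 (SE). Dnajb2 (0.08 ± 0.11, SE), Dnajb9 (-0.01 ± 0.12), Dnajb12 (-0.20 ± 0.13), Dnajb14 (0.15 ± 0.10) and Dnajb3 (-0.28 ± 0.33) did not pass either threshold at their brightest probes. The dimmer Dnajb14 probes gave 0.32 ± 0.12 and 0.51 ± 0.20 (SE), with unadjusted limma p of 0.0235 and 0.0353, so all Dnajb14 probes were higher in Prep1deltaSM.

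Of the 24 tested Dnajc genes, 2 were higher and 3 lower at an unadjusted p under 0.05, beside 5.54% and 10.3% of all genes. Dnajc17, a co-chaperone found with the splicing machinery, read 0.23, 0.18, 0.10 and 0.17 in Prep1f/+ and -0.45, -0.39, -0.32 and -0.50 in Prep1deltaSM. The groups were separated by a gap much wider than the range within either. It was 1.50-fold lower, with a difference of -0.58 ± 0.08 (SE), an unadjusted p of 5.4e-05 and an adjusted p of 0.0897, the smallest of all heat shock and DnaJ genes. The unadjusted p stayed at or under 0.00031 without each array in turn. After normexp background correction and quantile normalization the difference was -0.36, with an adjusted p of 0.0311; over the alternatives run it ranged from that value to 0.326. The 2 Dnajc17 probes are printed because their differences had unlike sizes. By their coordinates both span an intron on the minus strand of chromosome 2 in mm9. The first lies at chr2:118998369-118999946 and the second, farther upstream in the gene, at chr2:119006273-119006693. The array annotates them to different transcript records.
Dnajc17 probe nearest the 3′ end: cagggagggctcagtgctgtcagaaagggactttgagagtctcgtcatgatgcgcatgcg
Dnajc17 upstream probe: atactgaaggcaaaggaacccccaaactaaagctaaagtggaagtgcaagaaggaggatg
The upstream probe read -1.64, -1.95, -1.86 and -2.11 in Prep1f/+ and -2.19, -1.87, -2.17 and -2.38 in Prep1deltaSM. There the groups overlapped, and the difference was -0.26 ± 0.14 (SE) with an unadjusted p of 0.0984.

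Dnajc4, a little studied mitochondrial member, read 4.14, 4.29, 4.08 and 4.17 in Prep1f/+ and 3.73, 3.86, 3.87 and 3.95 in Prep1deltaSM. The groups did not overlap, and the gene was 1.25-fold lower, with a difference of -0.32 ± 0.09 (SE), an unadjusted p of 0.00533 and an adjusted p of 0.18. Dnajc15, a mitochondrial inner membrane protein linked to respiratory supercomplexes, read 5.96, 5.80, 5.76 and 5.95 in Prep1f/+ and 5.42, 5.65, 5.61 and 5.78 in Prep1deltaSM. Array 4 of Prep1deltaSM overlapped the Prep1f/+ mice, and the difference was -0.25 ± 0.10 (SE) with an unadjusted p of 0.0355, under 0.05 in only 3 of the 8 fits that left out an array.

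Dnajc13, an endosomal protein that recruits Hspa8 to sort membrane cargo, read -0.60, -0.50, -0.31 and -0.57 in Prep1f/+ and -0.16, -0.08, -0.30 and -0.16 in Prep1deltaSM. The groups touched at array 3 of each without crossing, and the gene was 1.25-fold higher, with a difference of 0.32 ± 0.09 (SE), an unadjusted p of 0.00894 and an adjusted p of 0.202. Dnajc27, a Rab-like GTPase with a J domain, read 2.18, 1.98, 1.78 and 1.97 in Prep1f/+ and 2.29, 2.32, 2.24 and 2.21 in Prep1deltaSM. All Prep1deltaSM mice lay above all Prep1f/+ mice, with a difference of 0.29 ± 0.10 (SE), an unadjusted p of 0.0189 and an adjusted p of 0.236. Its other 2 probes gave 0.48 ± 0.12 and 0.35 ± 0.17 (SE), so all 3 were higher.

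**Figure D4:**
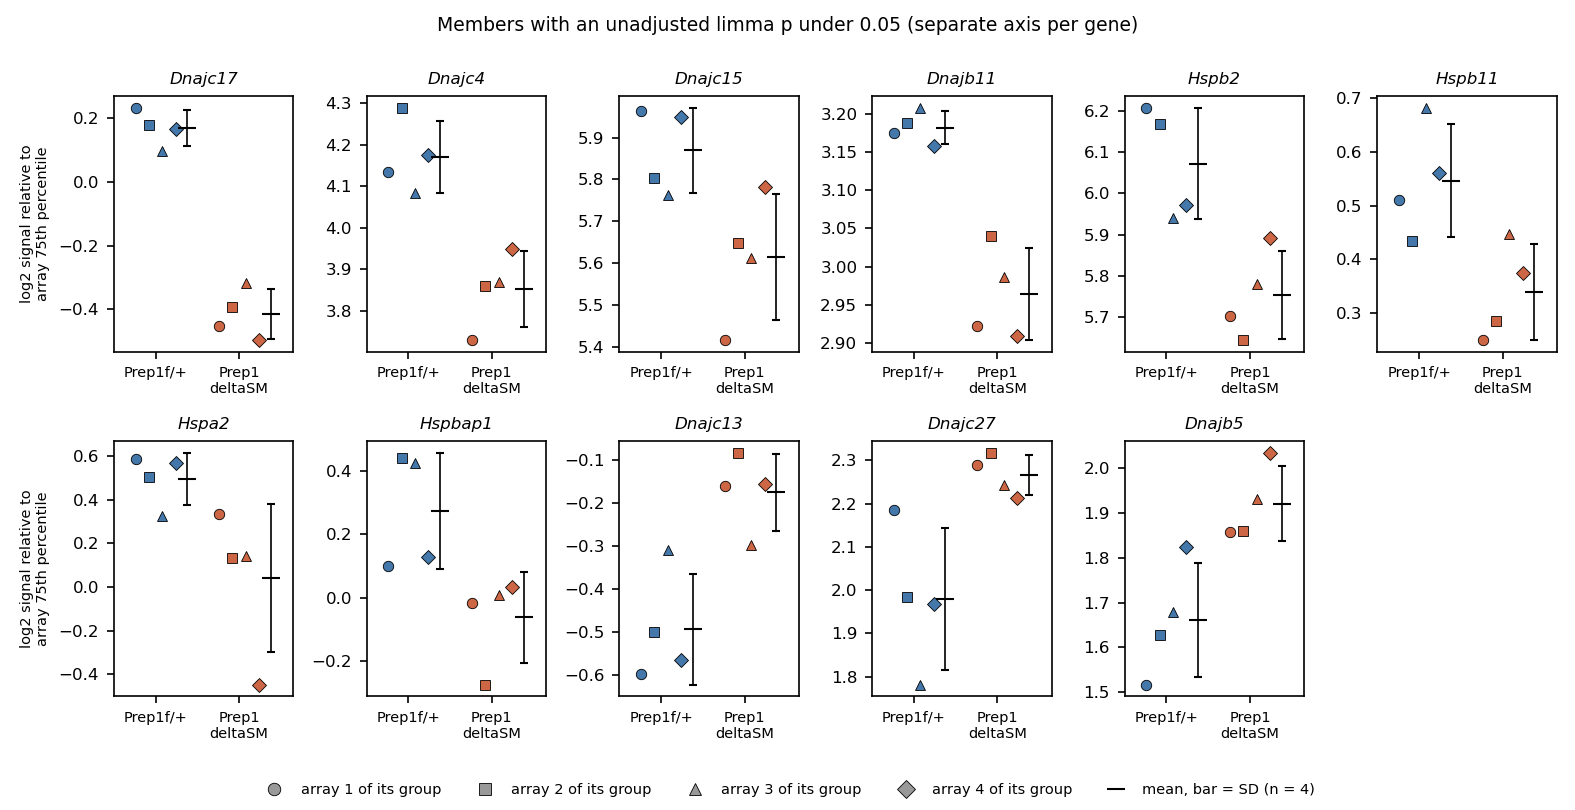
Log2 signal relative to the array's 75th percentile (y axis, its own scale for each gene) of the 11 genes with an unadjusted p under 0.05, on the 4 arrays of each genotype, with mean and SD at the right of each group and array numbers as marker shapes. Dnajc17 has the widest gap between groups relative to its spread, while Hspa2, Hspb11 and Dnajc15 overlap.

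The other Dnajc genes stayed between -0.19 and 0.14. They include Dnajc5 (cysteine string protein, which protects synaptic vesicle fusion) at -0.07 ± 0.08 (SE) and Dnajc19 (the J protein of the mitochondrial import motor) at -0.05 ± 0.09. Dnajc3 (p58IPK, an inhibitor of the kinase PERK) was also among them, at -0.18 ± 0.09 with an unadjusted p of 0.0769. The other Dnajc3 probes gave -0.06 ± 0.12, 0.05 ± 0.11 and -0.03 ± 0.11 (SE). Of the genes with other kinds of function, Hspbap1 read 0.10, 0.44, 0.42 and 0.13 in Prep1f/+ and -0.02, -0.27, 0.01 and 0.03 in Prep1deltaSM. The groups did not overlap, and the difference was -0.33 ± 0.12 (SE) with an unadjusted p of 0.0213 and an adjusted p of 0.242. Hspbp1, an exchange factor of Hsp70, and Hspg2 differed by -0.09 ± 0.11 and -0.13 ± 0.13 (SE).

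When each probe was fitted on its own, 12 of 127 tested probes were higher and 9 lower at an unadjusted p under 0.05, against backgrounds of 9.66% and 8.09% of all probes. Several of the higher probes belonged to genes whose brightest probe showed no difference. An upstream Hspa8 probe read 3.36, 3.17, 3.07 and 3.67 in Prep1f/+ and 4.06, 3.85, 3.71 and 4.06 in Prep1deltaSM. The groups did not overlap, with a difference of 0.60 ± 0.15 (SE), an unadjusted p of 0.00341 and an adjusted p of 0.12, although the probe nearest the 3′ end gave 0.07. Both Hspa8 probes are shown so that they can be placed in the transcript; they lie on the plus strand in mm9 at chr9:40611142-40611201 and chr9:40612674-40612733.
Hspa8 upstream probe: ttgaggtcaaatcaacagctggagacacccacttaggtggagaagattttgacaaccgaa
Hspa8 probe nearest the 3′ end: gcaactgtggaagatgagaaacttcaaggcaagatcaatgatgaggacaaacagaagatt
Dnajc10, a disulfide reductase of the endoplasmic reticulum, read -0.80, -0.69, -0.95 and -0.73 in Prep1f/+ and 0.07, -0.16, -0.19 and -0.55 in Prep1deltaSM at its most upstream probe. There the groups did not overlap and the difference was 0.59 ± 0.14 (SE), whereas the probe nearest the 3′ end gave -0.33 ± 0.10 (SE), also without overlap and in the opposite direction. The unadjusted p was 0.0022 and 0.011 for these. The upstream Hspd1 probe read 2.38, 2.29, 2.29 and 2.39 in Prep1f/+ and 2.55, 2.81, 2.72 and 2.78 in Prep1deltaSM, with a difference of 0.37 ± 0.09 (SE) against 0.05 downstream. The most upstream Dnajb6 probe differed by 0.34 ± 0.12 (SE) against -0.11 at the probe nearest the 3′ end. The array annotates these Dnajb6 probes to different transcripts of the gene. Dnajc16 and Dnajc28, whose roles are little known, had probes of opposite sign too: 1 of 4 Dnajc16 probes gave 0.46 ± 0.17 (SE) against -0.02 at another, and 1 of 3 Dnajc28 probes gave -0.36 ± 0.11 against 0.03 at another.

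Over the 38 genes with at least 2 tested probes, the most upstream probe had the higher difference in 29 (76.3%), with a median gap between the 2 differences of 0.14. Over all 5774 such genes the share was 67.4% and the median gap 0.11, so the pattern ran through the whole array. The median signal of upstream over downstream probes across those genes lay between -1.57 and -1.39 (log2) on Prep1f/+ arrays and between -1.41 and -1.29 on Prep1deltaSM arrays. The part of RNA integrity in this was not tested. Of the 38 genes, 9 had an unadjusted p under 0.05 at just 1 of the 2 probes, 2 (Dnajc10 and Dnajc27) at both and 27 at neither. The plot of probe pairs shows both differences of each gene.

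**Figure D5:**
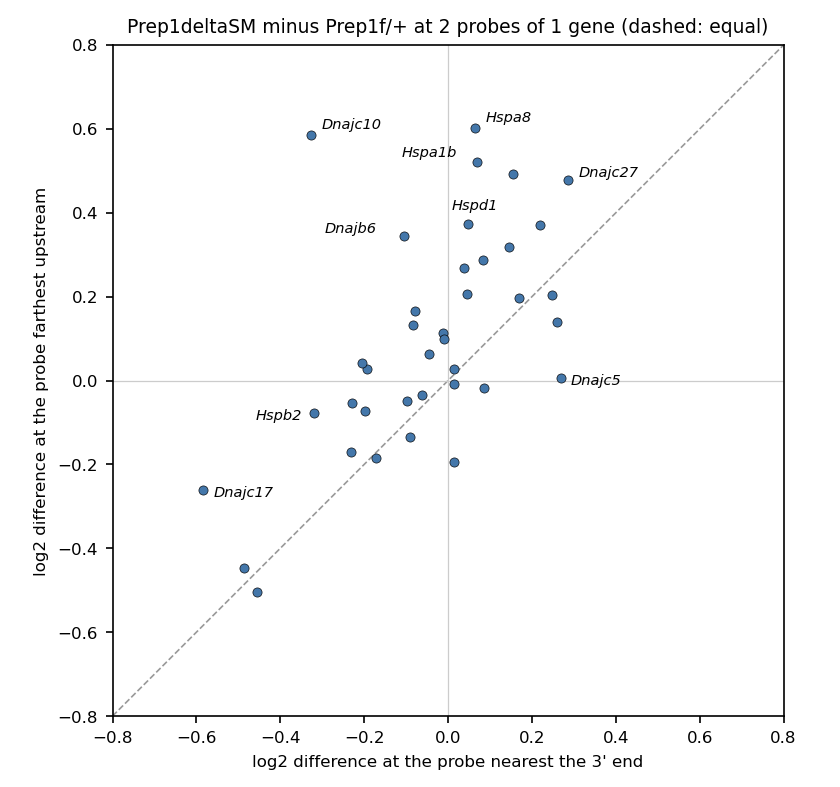
Log2 difference (Prep1deltaSM minus Prep1f/+) at the probe nearest the 3′ end (x axis) and at the probe farthest upstream (y axis) of the 38 genes with at least 2 tested probes; the dashed line marks equal differences. Of the points, 29 lie above the line, with Dnajc10 (0.59 against -0.33) and Hspa8 (0.60 against 0.07) far from it.

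Genes of the wider chaperone machinery that the name rule does not take were listed as 66 partners, of which 62 were tested. None passed an adjusted p of 0.05; at an unadjusted p under 0.05, 5 were higher and 5 lower, beside 5.54% and 10.3% of all genes, and 42 of the 62 differences were negative, beside 62.7% of all genes. Hsf1, the factor that switches on heat shock genes, read 5.04, 4.66, 4.38 and 4.94 in Prep1f/+ and 4.26, 4.33, 4.22 and 4.64 in Prep1deltaSM. Array 4 of Prep1deltaSM overlapped the Prep1f/+ mice, and the difference was -0.39 ± 0.16 (SE) with an unadjusted p of 0.0408. It was -0.30 with an unadjusted p of 0.106 without Prep1f/+ array 1, and -0.16 without arrays 1 and 4 of that group. Of 10 exchange factors of Hsp70, 1 was higher (Bag4, 0.33 ± 0.12, SE) and 4 were lower, namely Grpel1 (-0.25 ± 0.08) and Grpel2 (-0.23 ± 0.09) of the mitochondrion, Sil1 (-0.24 ± 0.10) of the endoplasmic reticulum and Bag6 (-0.22 ± 0.09), once named Bat3. Of these 5 calls, 2 (Bag4 and Grpel1) kept an unadjusted p under 0.05 with slide as a block; that of Bag6 became 0.103, of Grpel2 0.0703 and of Sil1 0.0721. With probes averaged per gene, Bag6 differed by -0.083 and Grpel1 by -0.074, and with the deposited table Bag6 differed by -0.014. Bag3, which joins Hsp70 to Hspb8, read 5.96, 5.37, 5.32 and 5.39 in Prep1f/+ and 5.45, 5.34, 5.26 and 5.99 in Prep1deltaSM. Array 1 of Prep1f/+ and array 4 of Prep1deltaSM stood above the rest, and the difference was -0.0021 ± 0.20 (SE). Both of these arrays lay on slide 3. They were also the highest of their groups for Hspa8, Hspb1, Hspb6, Hspb7, Dnaja4 and Cryab, among others. The share of all genes with this order was not computed, and the part of the slide in it was not tested. Of 22 co-chaperones of Hsp70 and Hsp90, 1 was higher (Fkbp4, an immunophilin, 0.29 ± 0.08, SE) and 0 lower; Unc45b, the myosin chaperone of muscle, differed by 0.01 ± 0.09.

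The cytosolic chaperonin, which folds actin and tubulin, and prefoldin, which feeds it, held 15 tested genes, of which 3 were higher and 0 lower at an unadjusted p under 0.05, beside 5.54% and 10.3% of all genes. Cct3 read -0.17, -0.38, -0.08 and -0.07 in Prep1f/+ and 0.62, 0.50, 0.41 and 0.27 in Prep1deltaSM. The groups did not overlap, and the difference was 0.62 ± 0.11 (SE) with an unadjusted p of 0.00039 and an adjusted p of 0.119. Cct4 and Cct6a differed by 0.22 ± 0.08 and 0.31 ± 0.10 (SE), whereas the median of the 15 was 0.01. Cct3 and Cct6a were the dimmest of the chaperonin genes, with means of -0.17 and -0.56 in Prep1f/+. The brighter Cct2, Cct5, Cct7 and Cct8 differed by -0.05, -0.11, 0.03 and 0.01, Cct6b by 0.06 and Tcp1 by 0.20. With slide as a block the unadjusted p of Cct4 was 0.0598. The heat shock factors (4 tested, median -0.18), mitochondrial chaperones and proteases (5, -0.15), other J-domain proteins (4, -0.06), the collagen chaperone Serpinh1 (0.02) and the small heat shock protein list, of which Cryab was the 1 gene tested, gave no other gene past that threshold.

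Some markers of other cells in the muscle differed between the groups, and their part in the small differences above was not tested. The summed signals did not overlap between groups for the satellite cell, smooth muscle and slow fibre lists, and overlapped for the other cell types listed here. At an unadjusted p under 0.05, 5.54% of all genes were higher and 10.3% lower. The log2 of the summed signal of the satellite cell markers ranged from 2.72 to 2.86 in Prep1f/+ and from 1.98 to 2.37 in Prep1deltaSM, with 1 of 2 tested genes lower at that threshold. This sum was carried by Cdh15 (-0.64 ± 0.10, SE), while the much dimmer Pax7 differed by -0.11 ± 0.25. The log2 sum of the smooth muscle markers ranged from 7.54 to 7.85 and from 7.92 to 8.08, with 2 of 4 higher. It was carried by Acta2 (0.44 ± 0.11, SE). Myh11 was also higher (0.44 ± 0.12), while Tagln (-0.23 ± 0.17) and Cnn1 (-0.04 ± 0.24) were not. Leukocyte markers ranged from 3.96 to 5.10 and from 3.40 to 4.25 (2 of 5 lower), fibroblast markers from 8.64 to 9.41 and from 8.25 to 9.46 (3 of 7 lower), and tendon markers from 2.92 to 3.62 and from 2.11 to 3.28 (1 of 3 lower). Slow fibre markers ranged from 9.56 to 9.64 and from 9.34 to 9.47 (0 of 7 past the threshold), a sum carried by Myl3; all 7 differences were negative, with a median of -0.51 and Myl2 at -1.93 ± 0.87 (SE). Those of adipocytes ranged from 7.05 to 7.36 and from 6.66 to 7.33 (0 of 4), a sum carried by Fabp4, whereas Cfd ran from 5.82 to 1.6 and Adipoq from 1.69 to -2.56 over the 8 mice. Erythroid markers ranged from 6.55 to 8.47 and from 7.24 to 9.40 (0 of 3). Endothelial markers, which bear on Hspa12b, ranged from 4.42 to 5.11 and from 4.48 to 4.70 (1 of 5 higher), and Schwann cell markers from 1.02 to 2.30 and from 1.20 to 1.56 (0 of 4).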

How the data were processed

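Muscle RNA of 8 mice was measured on 1-colour Agilent arrays of design 014868. Per the file headers, the deposited spot intensity was made by Feature Extraction 10.5.1.1 (background subtracted, spatial trend removed, not normalized between arrays), whereas version 9.1 stands in the submitters' processing notes. Of 32812 rows in the series table the authors deposited, 26230 lay within 0.1 log2 of quantile-normalized scanner values and the table served as an alternative.

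The log2 intensity was taken relative to each array's 75th percentile, 0 to 11 non-uniform spots per array were left out, and spots of a probe were averaged. A probe was kept where 4 or more of the 8 arrays had it well above background (24488 of 41174 probes), and the brightest probe stood for a gene (16016 genes). The test was limma's (version 3.58.1, lmFit then eBayes, R 4.3.3), and p-values were adjusted by Benjamini-Hochberg across the genes tested; the fit was tested on simulated data. All 75 symbols matched RefSeq names of GRCm38.p6. Promoters and probes were searched and figures drawn in Python 3.11.15.

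The members, lists and the naming rule (the targeted gene, members with an unadjusted p under 0.05, up to 4 per class with the smallest p, whole small classes, a set list of chaperones, members with discordant probes, and partners past that threshold) were chosen with earlier results of these data known. Partner and marker lists come from general knowledge. Mice are numbered in accession order and are not paired by the labels. Each slide, 4 in all, carried 1 Prep1f/+ and 1 Prep1deltaSM array. Whether mice were littermates is not given, so p-values measure the spread between these samples.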

Additional observations from a re-analysis of the deposited data

Results flagged for a closer look

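In 7 of the 138 groups of 4 mice examined (heat shock and DnaJ genes and Pknox1), 1 mouse stood apart from the other 3 by Dixon's ratio (gap to the nearest mouse over the whole range, above Dixon's 95% critical value); chance gives about 6.9. In Prep1deltaSM, Dnajc1 was lowest on array 2 (ratio 0.931, 1.97 against 2.19 log2), Hspa14 highest on array 2 (0.884, 2.88 against 2.74), Hspbap1 lowest on array 2 (0.838, -0.27 against -0.02), Hspbp1 lowest on array 1 (0.855, 2.20 against 2.32) and Hsph1 highest on array 4 (0.898, 4.62 against 4.12). In Prep1f/+, Dnajc14 was highest on array 1 (0.915, -1.23 against -1.54), and so was Dnajc3 (0.846, 2.37 against 2.13). Hsph1 was the 1 case among these on an array 4; Hspa1a and Hspa1b, though widest in spread, did not pass this ratio, since array 1 lay between array 4 and the others.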

How the results depend on the processing

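The count of genes with an adjusted p under 0.05 was 0 in the fit as reported and 1 (Dnajc17) with normexp and quantile normalization. The count of higher genes at an unadjusted p under 0.05 was 5 in place of 3 with normexp, with quantile normalization alone, with probes averaged per gene and without arrays 1 and 4 of Prep1f/+, and 12 with every probe on its own, which tests more probes. The count of lower genes was 3 in place of 8 with the deposited table, which tests fewer genes. Leaving out 1 array at a time gave 2 to 5 higher, 5 to 9 lower and a median of -0.08 to -0.03; without Prep1f/+ array 1 there were 5 and 5. Without array 4 of both groups, chosen after seeing the data, there were 4 higher, 10 lower and 0 adjusted. Dnajc5 turned from -0.07 to 0.32 with the deposited table, where probe A_52_P113126 stood for it in place of A_52_P113129, and Grpel2 turned to 0.011 with its probes averaged. Pknox1 kept its direction, but its adjusted p passed 0.05 with slide as a block (difference -1.76, adjusted p 0.062), without arrays 1 and 4 of Prep1f/+ (-1.78, 0.0605), and without Prep1f/+ array 2, Prep1f/+ array 3 or Prep1deltaSM array 2 (0.0656, 0.0641 and 0.0738), with differences of -1.84 to -1.68 over the 8 fits. Of the 11 genes with an unadjusted p under 0.05, 6 kept it in all 8 such fits (Dnajb11, Dnajc13, Dnajc17, Dnajc27, Dnajc4 and Hspb2). Without a filter on dim probes the median of all genes shifted to -0.13. The labels give the mice no shared numbers, so pairing was by slide alone: with slide as a block 0 heat shock or DnaJ genes passed an adjusted p of 0.05, 7 of the 11 kept an unadjusted p under 0.05, and Dnajb11 (0.0509), Hspbap1 (0.0522), Dnajb5 (0.0547) and Hspb11 (0.0807) did not. With probes averaged, 9 of the 11 kept it (not Dnajb5 and Hspb2), and 4 of the 8 that had a value did so with the deposited table (not Dnajb11, Dnajb5, Dnajc15 and Hspb11). Signals far below the 75th percentile, such as Dnajb3, lie close to background, where small differences cannot be resolved. Hspb9 (means of -2.22 in Prep1f/+ and -2.35 in Prep1deltaSM) was dim too, though well above background on all 8 arrays. Bag4 had a similar level (-2.44 and -2.11).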
